A study of Mus musculus with 6 samples.

Results

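Sox genes encode transcription factors that bind DNA through an HMG box related to that of the testis-determining factor Sry. The report follows 10 of them, Sox2, Sox4, Sox5, Sox6, Sox8, Sox9, Sox10, Sox11, Sox17 and Sox18, among 34395 gene entries of the deposited tables. The members were the entries whose symbol equals one of these names. They had been selected on values of the same young and old libraries, so their differences between these groups are given as a description without p-values. The libraries were made from total RNA of basal cochlea from C57BL/6J mice, after removal of ribosomal RNA, and 3 were labelled young and 3 old. All 6 share this inbred strain, which loses hearing early and first at the cochlear base, and no transgene or treatment is given. The labels do not state ages or sex, nor whether each library is from a separate animal, so every p-value below measures only the spread between these libraries. By Xist and Ddx3y RNA the young libraries were female and the old ones male, so labelled age and sex cannot be told apart.

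The family is divided into subgroups whose members share most of the HMG box and often stand in for one another. Sox2 (SoxB1) sets up the prosensory domain of the embryonic cochlea, from which hair cells and supporting cells arise, and it persists in supporting cells. Sox8, Sox9 and Sox10 (SoxE) act in the otic epithelium, and Sox10 also in Schwann cells and melanocytes of the neural crest, while Sox9 with Sox5 and Sox6 (SoxD) drives cartilage genes. Sox4 and Sox11 (SoxC) act in young neurons and in embryonic hair cell formation, and Sox17 and Sox18 (SoxF) act in the endothelium of vessels.

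Members of a subgroup have similar coding sequence in the HMG box. Shown here are 60 bases (20 codons) near the start of the box of the 6 members for which a promoter entry was also found. Sox9, Sox10, Sox17 and Sox18 had none and are not shown. Lower case bases equal those of Sox2 and capitals differ from it, 5′ to 3′, taken from GENCODE transcripts of GRCm38 on the coding strand of each gene.
Sox2: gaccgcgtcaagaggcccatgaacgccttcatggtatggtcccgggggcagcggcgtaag
Sox4: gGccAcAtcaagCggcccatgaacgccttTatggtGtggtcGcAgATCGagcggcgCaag
Sox11: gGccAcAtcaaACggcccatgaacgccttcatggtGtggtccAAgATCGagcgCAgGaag
Sox5: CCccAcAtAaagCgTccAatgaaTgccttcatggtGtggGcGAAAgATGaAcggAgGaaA
Sox6: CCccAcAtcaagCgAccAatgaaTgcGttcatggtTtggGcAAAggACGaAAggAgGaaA
Sox8: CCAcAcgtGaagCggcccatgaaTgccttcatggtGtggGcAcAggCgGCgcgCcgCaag
Sox4 and Sox11 differed from Sox2 at 13 and 15 of these bases, and Sox8 at 16. Sox5 and Sox6 were farthest, each with 22 bases unlike Sox2 and 7 codons for another residue. Over the 79 codons of the box in all 10 members, residue identity was 88.6 to 98.7% in the 6 pairs within a subgroup and 46.8 to 69.6% in the 39 pairs between subgroups. Sox8 and Sox9 were the closest pair at 98.7%. No run of 50 bases was shared between the transcripts of any of the 45 pairs of members, and runs of 31 bases were shared in 2 pairs.

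Of the 10 members, 9 were higher in old libraries in the edgeR fit over all genes (adjusted p under 0.05), none was lower, and Sox8 did not pass. The background in that fit was large, with 26.9% of 20157 tested genes higher in old, 27.3% lower and 54.2% in either direction. Since the members were selected on this contrast, nothing is read from their count. In the same 9 members every old library lay above every young library in CPM (counts scaled to library size, with TMM factors between libraries), which held for 31.2% of the tested genes. The median log2 fold change of the members was 0.57 and that of all tested genes 0.01, and the members ran from -0.30 in Sox8 to 1.92 in Sox17. In bulk tissue, more cells of a type and more RNA per cell cannot be told apart.

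**Figure D1:**
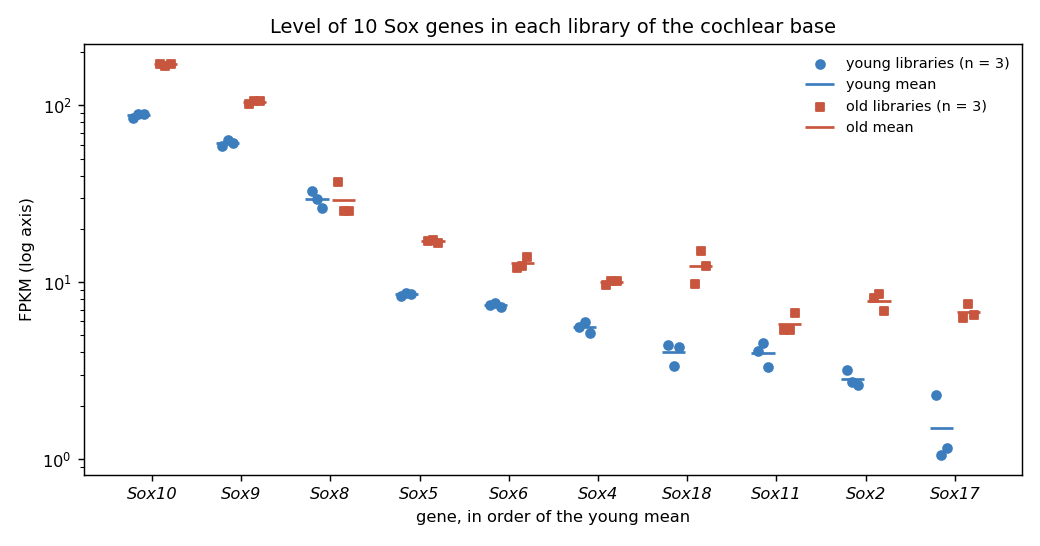
FPKM of each of the 10 Sox members in the 3 young and 3 old libraries, with group means, on a shared logarithmic axis. Genes are in order of the young mean. In 9 genes the old libraries lie above all young ones. In Sox8 old 1, at 36.69 FPKM, lies above the young libraries, and old 2 and old 3 lie below them.

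Sox10 and Sox9 had the highest levels per transcript length (FPKM) of all Sox genes in both groups. Sox10 had 219.9, 246.1 and 257.7 CPM in young 1, 2 and 3 and 392.3, 372.5 and 386.7 CPM in old 1, 2 and 3. The groups did not overlap, and the spread within either group was small beside the gap between them. The means were 241.2 ± 19.4 (SD, n = 3) and 383.8 ± 10.2 CPM, a log2 fold change of 0.67 ± 0.08 (SE). Sox9, needed for otic cup formation and kept in supporting cells, had 240.4, 277.4 and 277.0 CPM in the young and 364.6, 373.3 and 376.0 CPM in the old libraries. Again no old library came near a young one, and the old libraries were within a few percent of one another. The log2 fold change of Sox9 was 0.49 ± 0.08.

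Sox8, the SoxE gene whose box is nearest to that of Sox9, did not share this pattern. It had 95.13, 90.40 and 84.93 CPM in the young and 93.20, 63.23 and 63.48 CPM in the old libraries. Old 1 lay within the young range, and old 2 and old 3 lay below it. The coefficient of variation was 23.5% in the old and 5.66% in the young libraries, and the log2 fold change was -0.30 ± 0.14. Without old 1 it was -0.52 and passed as lower, and with libraries scaled by their totals alone it was -0.03.

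Compared per transcript length, the SoxE genes were farther apart in old libraries. In FPKM (fragments scaled to transcript length and library size, as the authors deposited them), Sox10 had 87.7 ± 2.65 in young and 170.4 ± 3.03 in old libraries, and Sox9 had 61.2 ± 2.5 and 104.4 ± 2.62. Sox8 had 29.6 ± 3.24 and 29.1 ± 6.55 FPKM. The FPKM ratio of Sox10 to Sox8 was 2.58, 3.04 and 3.38 in the young and 4.70, 6.57 and 6.79 in the old libraries. The ratio of Sox10 to Sox9 differed less, 1.43 ± 0.03 against 1.63 ± 0.06, also without overlap between the groups.

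Sox2 was a low transcript. It had 7.42, 6.77 and 6.82 CPM in the young libraries, from 265, 241 and 224 counts, and 16.6, 17.3 and 13.9 CPM in the old libraries, from 484, 515 and 403 counts. The lowest old library was well above the highest young one. The means were 7.0 ± 0.36 and 15.9 ± 1.76 CPM, and the log2 fold change was 1.19 ± 0.13. Sox2 (chromosome 3, 34649995 to 34652461, GRCm38.p6) lies inside Sox2ot, a long noncoding gene that spans 34560381 to 34677993. Sox2ot, which is no member, had 4.62, 2.95 and 2.34 CPM in the young libraries and 6.86, 8.98 and 7.99 CPM in the old ones. It rose by a log2 fold change of 1.26 ± 0.24 (edgeR adjusted p = 0.00154). Nothing in the sources used here says whether counting used strand, and reads of the shared span cannot be told apart.

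Sox17 and Sox18 had the largest fold differences among the members. Sox17, which acts in arterial endothelium, had 8.51, 4.18 and 4.66 CPM in the young and 20.3, 24.3 and 21.1 CPM in the old libraries. Young 1 was the highest young library, at less than the lowest old value, and the young coefficient of variation was 41.0%. The log2 fold change was 1.92 ± 0.23, and it ran from 1.72 to 2.28 when 1 library was left out. Sox18, which acts in developing lymphatic vessels, had 6.47, 5.17 and 6.94 CPM in the young and 12.5, 18.8 and 15.5 CPM in the old libraries. The old libraries were more spread than the young ones but none overlapped them, and the log2 fold change was 1.33 ± 0.18. The FPKM ratio of Sox17 to Sox18 overlapped between groups, with 0.520 in young 1 and 0.500 in old 2.

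The SoxD pair differed less between the groups. Sox5 had 40.6, 47.3 and 45.3 CPM in the young and 64.4, 60.0 and 63.7 CPM in the old libraries. Sox6 had 74.8, 80.4 and 73.3 CPM in the young and 106.1, 111.7 and 116.8 CPM in the old libraries. In both genes the groups were apart, with log2 fold changes of 0.50 ± 0.09 for Sox5 and 0.55 ± 0.08 for Sox6. In FPKM the mean of Sox5 was 2.00 times as high in old libraries, against a CPM ratio of 1.41. The FPKM carry no TMM factors, and the FPKM ratio exceeded the CPM ratio by 1.17 to 1.23 times in the other 9 members and by 1.41 times in Sox5. The effective length implied by its counts and FPKM had a mean of 4731 bases in young and 4054 in old libraries, so the FPKM of Sox5 also rests on different lengths in the groups, while the length ratio of old to young was 0.989 to 1.04 in the other members. Sox5 overlaps 6 noncoding genes, and Sox6 overlaps 2.

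In the SoxC pair, Sox11 had the smallest difference among the 9 members that were higher. Sox4 had 26.1, 29.4 and 26.5 CPM in the young and 39.8, 41.3 and 41.5 CPM in the old libraries. Sox11 had 30.9, 32.7 and 31.5 CPM in the young and 40.5, 39.9 and 39.5 CPM in the old libraries. Sox11 had the lowest coefficient of variation of the members in both groups, 2.90% in the young and 1.30% in the old libraries. The log2 fold changes were 0.58 ± 0.09 for Sox4 and 0.33 ± 0.08 for Sox11. The implied length of Sox11 varied from 6460 to 8219 bases among the libraries of both groups, so its FPKM is less certain than its CPM.

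**Figure D2:**
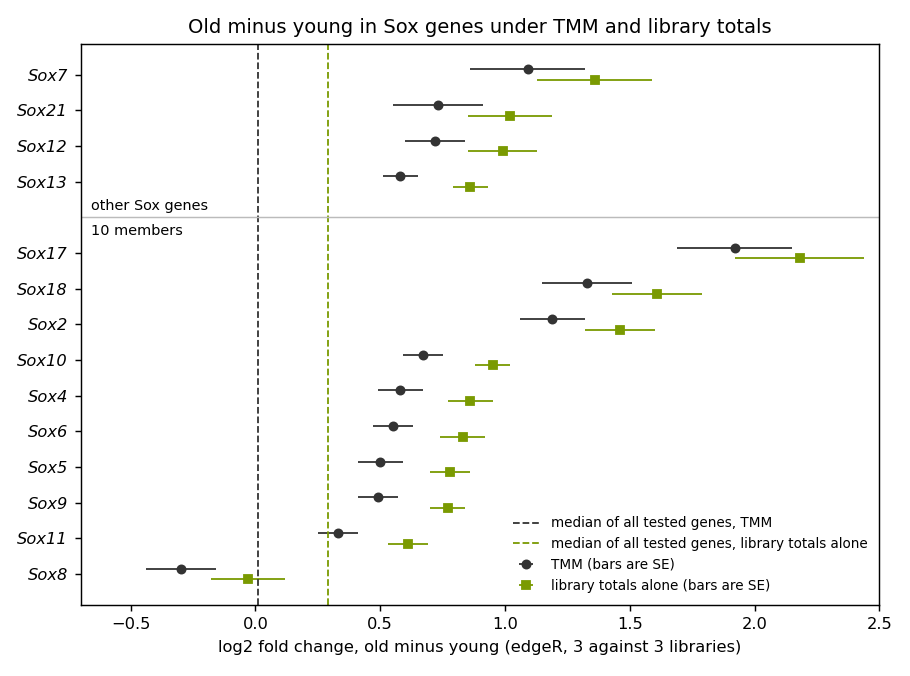
Log2 fold change (old minus young, with SE) of the members and of the tested Sox genes that are no members, with TMM scaling and with library totals alone. The dashed lines mark the median of all tested genes, 0.01 with TMM and 0.29 with library totals. Sox17 lies farthest right at 1.92 with TMM, and Sox8 is the lowest at -0.30.

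Ordered by mean FPKM, the young libraries had Sox10 first, then Sox9, Sox8, Sox5, Sox6, Sox4, Sox18, Sox11, Sox2 and Sox17. In the old libraries the order of the members was Sox10, Sox9, Sox8, Sox5, Sox6, Sox18, Sox4, Sox2, Sox17 and Sox11. Sox genes that are no members are left out of both orders. Of these, Sox13 had a mean of 21.3 FPKM in young libraries, between Sox8 and Sox5. In old libraries its mean was 36.6 FPKM, above that of Sox8, with overlapping ranges. In the young group the FPKM ranges of the neighbours Sox18 and Sox11 overlapped. In the old group those of Sox6 and Sox18, of Sox18 and Sox4, of Sox2 and Sox17, and of Sox17 and Sox11 overlapped, so these neighbours are not separated beyond their spread. Sox10 lay above 96.7% of the 18688 protein-coding genes by mean FPKM in young and above 98.8% in old libraries. Sox17 lay above 33.0% and 52.2% of them.

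The members' FPKM summed to 211.7, 216.3 and 209.0 in the young and to 378.7, 374.5 and 376.5 in the old libraries. Sox10 made up 41.3 ± 1.37% of the young sum and 45.2 ± 0.60% of the old sum. The share of Sox8 was 15.5, 13.6 and 12.6% in the young and 9.69, 6.78 and 6.72% in the old libraries, without overlap. The shares of Sox9 were close, 28.8 ± 0.90% and 27.7 ± 0.83%. The low SoxF genes had larger shares in old libraries, 0.71 ± 0.33% against 1.80 ± 0.18% for Sox17 and 1.90 ± 0.30% against 3.30 ± 0.71% for Sox18.

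**Figure D3:**
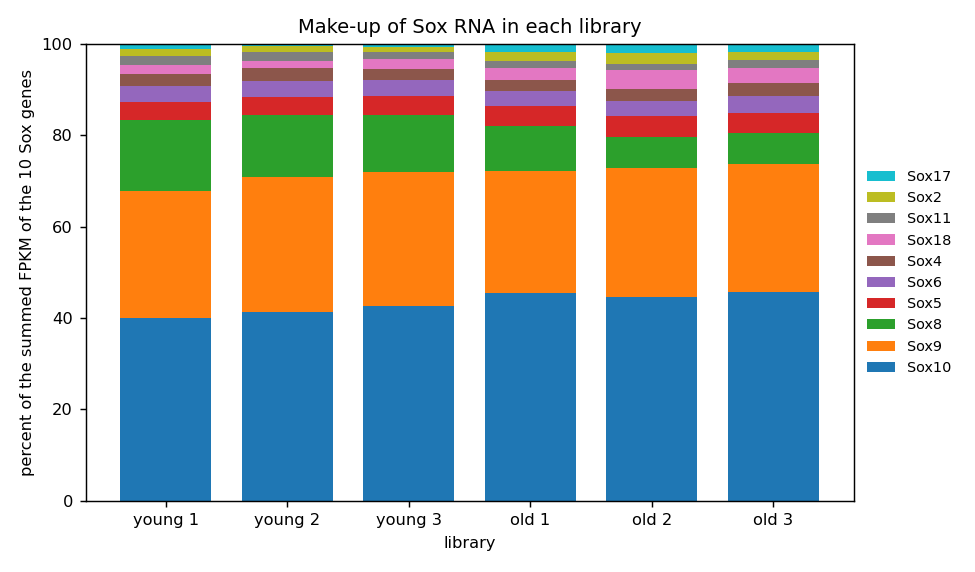
Share of each member in the summed FPKM of the 10 members, in percent, for each of the 6 libraries. Sox10 and Sox9 together hold most of the sum in every library, and the Sox8 share is 12.6 to 15.5% in young and 6.72 to 9.69% in old libraries.

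Among the Sox genes that are no members, 8 had an entry, and the 4 that passed the low count filter all rose (edgeR), with a median log2 fold change of 0.73 against 0.01 for all tested genes. The share that rose over all tested genes was 26.9%. Sox13, a SoxD gene, had 74.2, 78.6 and 78.0 CPM in the young and 119.9, 113.6 and 111.6 CPM in the old libraries. It rose by 0.58 ± 0.07 (adjusted p = 0.000152). Sox12, a SoxC gene, had 17.1 ± 2.42 CPM in the young and 28.2 ± 2.18 CPM in the old libraries, and rose by 0.72 ± 0.12 (adjusted p = 0.000797). Sox21, a SoxB2 gene expressed in the sensory epithelium, had 5.37, 6.18 and 8.79 CPM in the young and 11.4, 10.3 and 12.1 CPM in the old libraries, and rose by 0.73 ± 0.18 (adjusted p = 0.00717). Sox7, the remaining SoxF gene, went from 1.63 ± 0.31 to 3.46 ± 0.27 CPM, and rose by 1.09 ± 0.23 (adjusted p = 0.00261). All old libraries were above all young ones in each of the 4 genes, which held for 31.2% of all tested genes.

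Sox1, Sox3, Sox15 and Sox30 did not reach the filter. Sox1 had 14 counts over the young and 13 over the old libraries, Sox15 had 28 and 24, and Sox30 had 22 and 24. Sox3, a SoxB1 gene on the X chromosome, had 7, 4 and 1 counts in the young and 0 in each old library. Among the noncoding genes named after Sox genes, Sox1ot had 9.90, 7.0 and 6.09 estimated counts in the young and 7.22, 12.6 and 28.95 in the old libraries, which overlapped. Sox6os had 16 counts in the young and 20 in the old libraries, and Sox5os4 had 0 in all 6.

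Promoter sequence is shown for Sox2 and Sox8. Sox2 had the largest fold difference among the members that had an entry, and Sox8 was the member that was not higher. The 250 bases before the annotated start are given 5′ to 3′ on the gene's strand, from RefSeq on GRCm38.p6. Capitals mark ACAAAG, a core sequence that Sox HMG boxes bind, or its other strand CTTTGT.
Sox2 promoter, chr3:34649745-34649994, plus strand: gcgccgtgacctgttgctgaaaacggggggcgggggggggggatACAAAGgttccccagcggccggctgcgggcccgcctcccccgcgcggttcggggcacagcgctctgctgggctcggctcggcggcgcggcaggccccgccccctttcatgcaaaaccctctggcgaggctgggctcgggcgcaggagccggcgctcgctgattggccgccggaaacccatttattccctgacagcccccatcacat
Sox8 promoter, chr17:25570687-25570936, minus strand: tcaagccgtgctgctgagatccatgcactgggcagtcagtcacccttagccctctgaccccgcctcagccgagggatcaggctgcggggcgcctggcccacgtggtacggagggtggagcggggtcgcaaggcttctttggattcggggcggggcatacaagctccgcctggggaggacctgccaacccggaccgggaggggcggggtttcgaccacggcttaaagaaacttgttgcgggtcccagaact
The Sox2 window held 1 match and the Sox8 window 0. Both were rich in G and C, 72.0% in Sox2 and 65.6% in Sox8, against a median of 52.4% over 32851 promoter windows of the same length, and they held 27 and 18 CpG. The motif was found on either strand in 16.5% of those windows. The 6 members with an entry had 11 windows, 6 of them for Sox6, and 6 windows held a match, 5 of Sox6 and 1 of Sox2. Sox4, Sox5 and Sox11 had no match. The Sox5 window, chr6:143947107-143947356 on the minus strand, lies inside the gene, which spans 143828425 to 144782287. It is therefore not the sequence before the outer start of Sox5. A match describes letters in a window and was not tested as a binding site.

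Genes that the Sox factors are known to act with did not all follow them. Of the 12 tested cartilage matrix genes of Sox9, Sox5 and Sox6, none rose, 7 fell and 5 did not pass, and their median log2 fold change was -0.39. Over all tested genes 26.9% rose and 27.3% fell, and no list count was tested against these shares. Ucma, a cartilage matrix protein, fell from 197 ± 31.7 to 75.0 ± 16.6 CPM, a log2 fold change of -1.40 ± 0.16 (edgeR adjusted p = 9.43e-05). Col2a1, the main cartilage collagen, fell from 235 ± 29.3 to 116 ± 14.5 CPM (-1.02 ± 0.12, adjusted p = 9.03e-05). Col9a2 and Col11a1, of the same collagen fibrils, fell by 0.98 ± 0.11 (adjusted p = 6.89e-05) and 0.74 ± 0.07 (adjusted p = 4.62e-05). The summed level of the list was 2248 to 2479 CPM in young and 1492 to 1786 CPM in old libraries, while Sox9, Sox5 and Sox6 were all higher in old ones.

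The Schwann cell and myelin genes of Sox10 were split. Of 12, 5 rose, 2 fell and 5 did not pass, with a median log2 fold change of 0.05. The shares over all tested genes were 26.9% that rose and 27.3% that fell. Pou3f1, a factor of Schwann cells that are about to myelinate, rose from 8.16 ± 1.97 to 24.1 ± 2.68 CPM (1.56 ± 0.17, edgeR adjusted p = 6.86e-05), and Cdh19, a cadherin of Schwann cell precursors, rose by 0.79 ± 0.16 (adjusted p = 0.00189). S100b, a calcium-binding protein also found in other cochlear cells, fell from 2790 ± 136 to 1276 ± 124 CPM (-1.13 ± 0.09, adjusted p = 2.26e-05). Without young 3, 5 genes of this list fell.

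Of 8 melanocyte genes of Sox10, none rose, 4 fell and 4 did not pass, and the median was -0.52. Among all tested genes 26.9% rose and 27.3% fell. In 7 of 18 alternatives 1 of these genes rose, library totals and the FPKM scales among them, and with log2(FPKM + 1) and no filter 2 fell. Dct, an enzyme of melanin synthesis, fell from 845 ± 91.4 to 423 ± 18.8 CPM (-1.0 ± 0.09, edgeR adjusted p = 3.6e-05). Tyr, the first enzyme of that pathway, fell by 0.62 ± 0.08 (adjusted p = 0.000188), and the receptor Kit by 0.70 ± 0.11 (adjusted p = 0.000471). Mlana, a protein of the pigment granule, fell by 0.95 ± 0.11 (adjusted p = 0.000114), but by 0.12 in log2(FPKM + 1), where it did not pass (adjusted p = 0.241). Mitf, the melanocyte factor that Sox10 activates, had 96.2 ± 7.53 and 109 ± 10.8 CPM (adjusted p = 0.123).

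Of the 11 tested Notch and prosensory genes, which act with Sox2, 4 rose, 2 fell and 5 did not pass, and the median was 0.21. Background shares were 26.9% of all tested genes higher and 27.3% lower in old libraries. Hes1, a Notch target, rose from 7.74 ± 0.45 to 16.6 ± 2.82 CPM (1.10 ± 0.14, edgeR adjusted p = 0.000188). Lgr5, a Wnt pathway receptor of supporting cells, rose by 0.61 ± 0.13 (adjusted p = 0.0033), and Hey2, a Notch target, by 0.49 ± 0.12 (adjusted p = 0.00564). Heyl fell by 0.48 ± 0.13 (adjusted p = 0.0117), but did not pass with library totals (adjusted p = 0.16) or without old 2 (adjusted p = 0.0544). The Notch ligand Jag1 had 50.1 ± 5.75 and 46.7 ± 5.48 CPM (adjusted p = 0.457). None of the listed genes fell with library totals.

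Of 15 endothelial genes, listed for Sox17 and Sox18, 4 rose, 1 fell and 10 did not pass, and the median was 0.24. With 26.9% of all tested genes higher in old, a count of 4 in 15 is near the background. Flt1, a VEGF receptor, rose from 47.2 ± 6.75 to 81.4 ± 2.71 CPM (0.79 ± 0.10, edgeR adjusted p = 0.000206). Efnb2, an arterial ephrin, rose from 140 ± 4.90 to 221 ± 2.51 CPM (0.66 ± 0.07, adjusted p = 6.3e-05), and Robo4 rose by 0.56 ± 0.14 (adjusted p = 0.00608). Kdr, the main VEGF receptor, fell by 0.53 ± 0.15 (adjusted p = 0.0119), and did not pass with library totals (adjusted p = 0.213). Cdh5, the cadherin of endothelial junctions, had 42.1 ± 2.14 CPM in the young and 43.6 ± 2.54 CPM in the old libraries (adjusted p = 0.642). The summed level of the list was 429.6 to 498.9 CPM in young and 582.3 to 628.7 CPM in old libraries. Efnb2 and Flt1 rose most in CPM within that sum, and 10 of its 15 genes did not pass. The count that rose was 7 without young 1 and 10 with library totals.

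Of 8 neuronal genes listed for Sox4 and Sox11, 5 rose, 1 fell and 2 did not pass, and the median was 0.51. Beside this, 26.9% of all tested genes rose and 27.3% fell. Elavl3, an RNA-binding protein of neurons, rose from 19.9 ± 5.56 to 40.2 ± 1.82 CPM (1.01 ± 0.17, edgeR adjusted p = 0.000675). Nefm, a neurofilament, rose by 0.80 ± 0.15 (adjusted p = 0.00131). Dcx, a microtubule protein of young neurons, rose by 0.62 ± 0.19 (adjusted p = 0.0179), but did not pass without young 2 (adjusted p = 0.0789), young 3 (adjusted p = 0.0735) or old 3 (adjusted p = 0.0562). Tead2, a target of both SoxC factors, fell from 28.8 ± 2.35 to 14.9 ± 1.30 CPM (-0.95 ± 0.11, adjusted p = 9.72e-05).

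**Figure D4:**
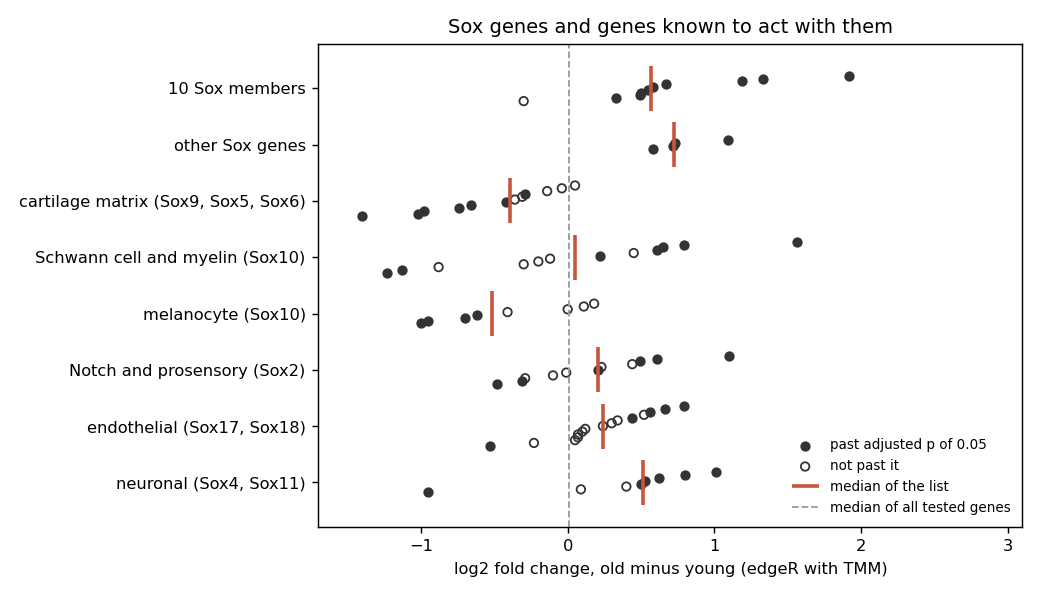
Log2 fold change (old minus young, edgeR with TMM) of each tested gene in the Sox groups and in the lists of genes known to act with them, with filled points past an adjusted p of 0.05 and a bar at each list's median. No cartilage gene among the 7 filled points and no melanocyte gene among the 4 filled points lies above 0, while the member median is 0.57.

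Likeness between genes was measured as the root mean square distance between log2 CPM centred on each gene over the 6 libraries, among 11832 named genes. It describes the libraries and rests mostly on the gap between the age groups. Sox4 and Sox6 were 0.0345 apart, both with Stk39 as the closest gene (0.0243 and 0.0298). Sox5 and Sox9 were 0.0431 apart, both with Mad1l1 as the closest gene (0.0338 and 0.0224). The closest gene was Zbtb20 for Sox10 (0.029), Kat6b for Sox11 (0.0113), Tnrc6c for Sox2 (0.0845), Ybx2 for Sox18 (0.0912) and Pvt1 for Sox17 (0.186). Sox17 was farthest from its nearest member, at 0.449 from Sox18, with 86 genes closer to it. Sox8 was 0.376 from its nearest member, Sox11, but 8398 genes were closer to Sox8. Its closest gene was Rab2b (0.0708), which also had its highest old value in old 1, 19.96 CPM against 15.25 and 15.45 CPM in old 2 and 3.

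The libraries differed in more than the labelled age. Gene counts totalled 37084017 to 39433584 in young and 26245416 to 26839068 in old libraries, and the share of counts in long noncoding genes was 2.74 to 3.37% in young and 4.98 to 5.25% in old ones. A single unnamed feature held 6.50 to 9.92% of the counts in young and 1.27 to 1.77% in old libraries, which enters the library totals and the FPKM. Xist had 445 ± 65.7 CPM in the young and 0.146 ± 0.151 CPM in the old libraries, and Ddx3y had 0 counts in young and 34.1 ± 3.68 CPM in old. By these genes all young libraries were female and all old ones male. Sex and labelled age therefore cannot be told apart in any difference between the groups. All 9 erythroid markers fell, where 27.3% of all tested genes did. Their summed levels were 2209 to 5037 CPM in young and 418.1 to 1275 CPM in old libraries. All 8 proliferation genes fell, from 40.1 to 99.4 CPM to 7.38 to 14.5 CPM, and 5 of 8 osteoblast markers fell, from 199.5 to 387.7 CPM to 85.8 to 94.4 CPM. Of 7 tested B lineage markers 6 fell and Ebf1 rose, which left the summed level at 239.6 to 267.6 CPM in young and 359.3 to 407.9 CPM in old libraries, and Vpreb1 and Igll1 were at 0 in old ones. The cochlear label was borne by hair cell markers, of which 8 of 8 fell (154.0 to 232.4 CPM to 96.1 to 108.1 CPM). It was also borne by markers of the stria vascularis, of which 5 of 6 fell (7005 to 10040 CPM to 3821 to 4355 CPM). No marker of either list was at 0 throughout. The part of these shifts in the Sox differences was not tested. With library totals in place of TMM the median over all genes moved to 0.29, and 8255 genes were higher and 2923 lower against 5427 and 5496 with TMM. The member median was then 0.84, and the same 9 members were higher.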

How the data were processed

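The authors deposited estimated counts and FPKM per gene for 6 libraries, mapped to GRCm38.p6 per the submitters' processing notes. Aligner, quantifier, annotation and strandedness: not given in the sources used here. Per the labels' protocols, Trizol was used to extract total RNA, and DNase treatment and ribosomal RNA removal followed. The deposited counts are not scaled, and 20.2% of gene values are not whole. The deposited FPKM are scaled by library and transcript length and were used for levels between genes. Of 42623 entries, 34395 are genes, and 8228 circular RNAs were left out.

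Rounded counts entered edgeR 4.0.16 (R 4.3.3), with filterByExpr, TMM, the quasi-likelihood test and Benjamini-Hochberg adjustment over 20157 genes, at an adjusted p under 0.05. The fit was also run on simulated counts in which few genes changed. In these data 54.2% of tested genes were called, so the simulation does not test the scaling under such broad change. The SE is the log2 fold change divided by the root of F. CPM are TMM-scaled. Alternatives used DESeq2 1.42.0, limma 3.58.1 and other scalings, filters and left-out libraries. Plots were drawn with matplotlib 3.10.9 from tables read by pandas 2.3.3 in Python 3.11.15.

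The members and gene lists were chosen with earlier results of these data known. Named were all members, Sox genes and Sox-named noncoding genes, in each list up to 4 passing genes with the largest change and at least 5 CPM, and each member's closest gene; Mitf, Jag1, Cdh5, Ebf1, Vpreb1 and Igll1 were chosen after their values were seen. Not every gene named by this rule is reported here. The HMG box was located as the 79-codon stretch most alike across the longest reading frames of GENCODE transcripts. RefSeq promoter entries were found for 6 members. Coordinates count from 1. Counting error is part of the spread between libraries, and for members such as Sox11 it is not small beside that spread.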

Additional observations from a re-analysis of the deposited data

How the results depend on the processing

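Over 18 alternatives the number of members higher in old libraries was 9. The number lower was 0, except 1 (Sox8) with no filter (-0.33), with the replicate block (-0.32) and without old 1, so it ran from 0 to 1 when 1 library was left out. The labels do not say that replicate numbers pair libraries. Like-numbered libraries correlated at -0.08, 0.03 and -0.06 in their deviations from the group means. These values show no shared deviation, but with so few libraries they cannot exclude a pairing. With the replicate block 4860 genes were higher and 5079 lower, and 4 of 4 other Sox genes still rose. Genes higher in old numbered 8255 with library totals against 5427. Genes lower numbered 2923 with library totals, 2758 with log2(FPKM + 1), 2792 with log2(FPKM + 0.1) and 2499 with log2(FPKM + 1) and no filter, against 5496. Among the other Sox genes 1, Sox3, was lower with no filter. In the order of levels 0 to 2 members took another rank when 1 library was left out. The member median was 0.84 with library totals, 0.70 with TMM over protein-coding genes and 0.84 and 0.90 with the FPKM scales, on which the median over all genes was 0.29, 0.15, 0.19 and 0.28. The cartilage genes that fell numbered 4 with log2(FPKM + 1). Over all single genes and alternatives, a call was lost 20 times and gained 3 times. The cause of these shifts was not tested. Sox genes with few counts could not be compared.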
